A study of Rattus norvegicus with 8 samples.

Results

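Claudins are the membrane proteins that form the strands of tight junctions. In the testis, tight junctions between neighbouring Sertoli cells, the somatic cells that nurse the germ cells of the seminiferous tubule, are part of the blood-testis barrier, which separates the later germ cell stages from the blood. Claudin-11 is a main strand protein of this barrier, and male mice that lack it are sterile. Occludin and the JAM proteins share the junction membrane with the claudins, and scaffold proteins such as the ZO proteins tie them to the cytoskeleton.

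The 8 claudin genes Cldn11, Cldn1, Cldn2, Cldn3, Cldn4, Cldn5, Cldn12 and Cldn15 were taken from the gene-level array as the rows whose symbol field holds that symbol alone, keeping the row with the highest mean signal. Each of the 8 had 1 such row, among 17582 genes with a row of their own symbol. The members were chosen with their values on these arrays known, so their differences are given as a description and carry no test. A further 14 claudins on the array were not members and are set beside them where they differ.

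The cells were primary rat Sertoli cells, isolated from testes by digestion and kept in serum-containing medium for 24 hours before treatment. The control cultures received solvent, the NP group 0.1 µM of a compound with that label, the MBP group 0.1 mM of another, and the NP+MBP group both at these doses. Exposure lasted 24 hours. The full names of the compounds, the strain and age of the rats and any pooling of animals are not stated in the labels. With 1 gene-level array per group, no group has a spread of its own, and precision is limited by how few arrays there were. The effect of each compound could be read in 2 pairs of arrays that have no array in common, in the absence and in the presence of the other compound. A mean ± SD over these is a description of the 2 pairs. For each gene the SD is the same for both compounds, since the same arrays give both. It is set by how far the combined exposure departs from the sum of the compounds, and holds no replicate spread.

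Sertoli cell marker genes were on the array for 11 of 12 listed. Of these, 8 lay above the signal filter used here, a mean log2 signal of 7.50 (the median of all probe sets), among them Sox9, Wt1, Clu, Gata4 and Fshr. Amh, Gata1 and Cst12 lay below it. Genes of other testis cells were also above the filter, with 4 of 4 measured peritubular myoid markers, 6 of 6 fibroblast and stroma markers and 2 of 5 Leydig cell markers, and 0 of 4 germ cell and 0 of 5 macrophage markers. In bulk RNA, fewer cells of a type and less RNA per cell cannot be told apart.

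Upstream sequence is shown for 3 members, to set the window of Cldn11 beside those of 2 members that stayed within 1.2-fold in all 5 comparisons. The 250 bases before the annotated start of each gene come from RefSeq (build GRCr8) and are written 5′ to 3′ on the strand of the gene. Capitals mark matches on either strand to 1 of 8 motifs, spelled out after the sequences. Cldn11 is at chr2:114149540-114149789 (minus strand), Cldn5 at chr11:95718599-95718848 (minus strand) and Cldn1 at chr11:87926126-87926375 (plus strand).
Cldn11: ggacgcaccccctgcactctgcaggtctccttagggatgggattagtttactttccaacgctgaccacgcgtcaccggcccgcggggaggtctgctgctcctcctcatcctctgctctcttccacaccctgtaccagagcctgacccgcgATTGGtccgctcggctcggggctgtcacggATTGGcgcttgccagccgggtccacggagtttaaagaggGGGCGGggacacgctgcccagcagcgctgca
Cldn5: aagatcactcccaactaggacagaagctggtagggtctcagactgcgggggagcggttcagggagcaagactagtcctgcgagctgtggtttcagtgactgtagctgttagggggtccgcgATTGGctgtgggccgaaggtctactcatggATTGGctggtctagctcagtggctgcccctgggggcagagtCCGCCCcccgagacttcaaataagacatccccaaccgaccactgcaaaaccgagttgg
Cldn1: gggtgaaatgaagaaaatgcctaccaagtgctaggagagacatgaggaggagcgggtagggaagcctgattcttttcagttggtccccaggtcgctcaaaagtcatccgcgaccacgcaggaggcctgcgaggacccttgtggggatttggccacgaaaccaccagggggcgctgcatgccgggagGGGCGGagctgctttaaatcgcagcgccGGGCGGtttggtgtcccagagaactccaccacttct

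Among the motifs searched, the box known to be bound by the factor NF-Y was written as CCAAT, and the GC box known from Sp1 binding was written as GGGCGG. The E-box form known to be bound by the Snail repressors was written as CAGGTG, and for GATA factors the search used GATAAG. The cyclic AMP response element known from CREB binding was written as TGACGTCA, and the half-site shared by many nuclear receptors was written as AGGTCA. For SOX factors the search used AACAAT, and the TATA box, which positions the basal transcription machinery, was written as TATAAA. No match overlaps another in the 3 sequences shown. Positions are those of the first base of a match as printed. Cldn11 held CCAAT on the reverse strand at 100 and 70 bases before the start, and GGGCGG on the forward strand at 31 bases. Cldn5 also held CCAAT on the reverse strand at 129 and 99 bases, and GGGCGG, likewise on the reverse strand, at 58 bases. Cldn1 had no CCAAT in this window and held GGGCGG on the forward strand at 64 and 36 bases. Of 33469 promoter windows of the same length, 34.0% held CCAAT and 30.5% GGGCGG. RefSeq windows were found for 6 of the 8 members, and those of Cldn12 and Cldn15 lie inside the annotated gene span, so they were not described. Among the other 4, which include Cldn3, CCAAT was present in 3 and GGGCGG in 4, and CAGGTG in Cldn3 alone. The Cldn11 window was 64.8% G and C with 19 CG dinucleotides, against a median of 51.2% and 5 over all windows. The other described windows also lay above these medians, Cldn5 at 58.4% and 10, Cldn1 at 59.2% and 14 and Cldn3 at 59.2% and 15. A match is a description of letters and shows no binding.

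Cldn11, the claudin of Sertoli cell and myelin tight junctions, was the member whose signal differed most between cultures with and without MBP. Its log2 signal was 10.04 on the control array and 10.02 on the NP array, against 9.37 with MBP alone and 9.46 with both compounds. Both arrays without MBP lay above both arrays with it. From high to low the arrays ran control, NP, NP+MBP, MBP, with gaps of 0.02 between the upper pair, 0.56 between the pairs and 0.09 within the lower pair. The gap within the upper pair lies inside the central 90% of NP minus control differences over the 13798 probe sets above the filter, -0.15 to 0.19. The gap within the lower pair lies inside that of NP+MBP minus MBP, -0.10 to 0.10. Among probe sets above the 75th percentile of signal, where Cldn11 lies, the latter range is -0.060 to 0.0845. The 0.0854 of Cldn11 lies just outside that narrower range. Over both MBP pairs Cldn11 differed by -0.62 ± 0.07 (SD, n = 2 pairs). MBP alone left 62.9% of the control signal, and NP+MBP left 67.6% of the signal with NP. The probe set of Cldn11 spans chromosome 2 from 116626421 to 116639732 on the minus strand in the RGSC3.4 coordinates of the array annotation, 13312 bases that hold the gene's exons and introns. The annotation marks it as free of cross-hybridization. In the same coordinates Cldn1 spans chromosome 11 from 76473654 to 76488815 and Cldn2 chromosome X from 127546208 to 127547889. Cldn4 spans chromosome 12 from 22816134 to 22817932, with Cldn15 on the same chromosome from 20823572 to 20844183, and Cldn12 chromosome 4 from 25213102 to 25216811.

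**Figure D1:**
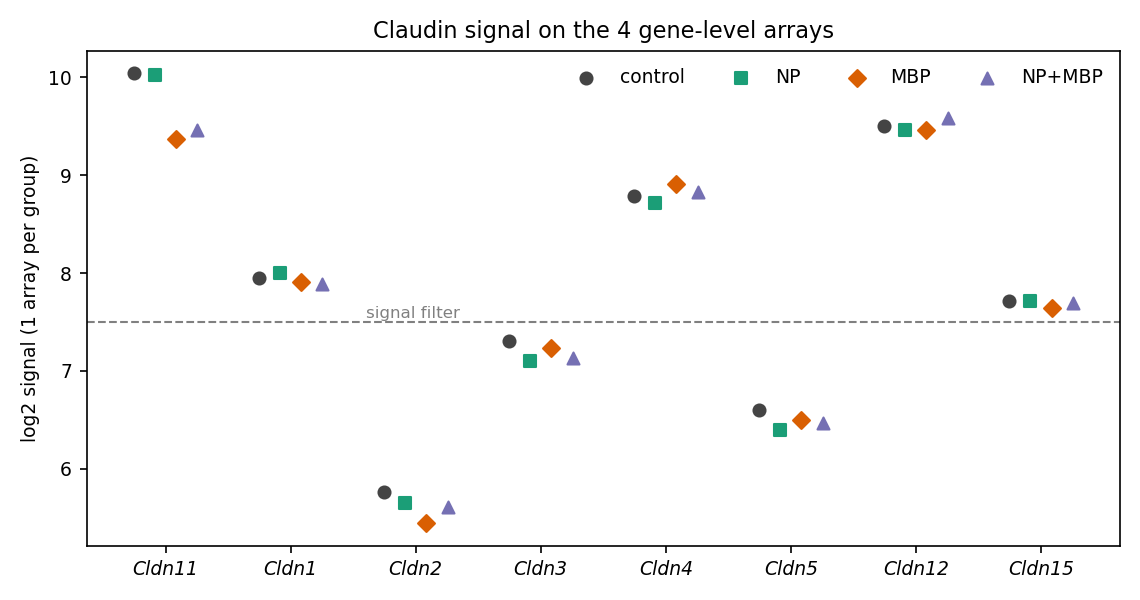
The log2 signal of the 8 claudins (vertical axis) is drawn for the control, NP, MBP and NP+MBP arrays, 1 point per array, with the signal filter of 7.50 as a dashed line. Cldn11 is split into 2 arrays near 10.0 without MBP and 2 near 9.4 with it, whereas the 4 points of every other member lie within 0.32.

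Of the 13798 probe sets above the filter, none was lower than Cldn11 in MBP minus control or in NP+MBP minus NP. In NP+MBP minus control it stood at -0.58, with 2 probe sets lower still. A 1.5-fold difference is 0.585 on the log2 scale. At that threshold 1 of the 8 claudins, Cldn11, was lower in MBP minus control, where 0.00725% of all probe sets above the filter were lower by as much. In NP+MBP minus NP (-0.565) and NP+MBP minus control (-0.582) Cldn11 lay just inside the threshold, and 0 claudins were past it, against 0.0% and 0.0145% of probe sets lower. At 1.2-fold Cldn11 was past the threshold in all 3 of these comparisons, where 1.08%, 0.217% and 2.12% of probe sets were lower. These shares stand beside a member chosen on the same values and are not a test of it.

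NP did not separate the Cldn11 arrays. NP minus control was -0.02, at 98.8% of the control signal, and NP+MBP minus MBP was 0.09, giving 0.03 ± 0.07 over both pairs. In NP minus control 0 of the 8 claudins were past 1.2-fold, where 3.04% of probe sets were in either direction, and in NP+MBP minus MBP 0 were, where 0.297% were. The departure from the sum of the compounds was 0.10, against an SD of 0.10 over the 13798 probe sets, so Cldn11 with both compounds lay within the usual spread of the sum of each. The sign of NP minus control turned to 0.01 when each array was centred on its median.

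The other 4 members above the filter were Cldn4, Cldn12, Cldn1 and Cldn15, with differences of at most 0.12 in size in any of the 5 comparisons. Cldn4, a receptor of the Clostridium perfringens enterotoxin and a claudin of tight epithelia, had log2 signals of 8.79 (control) and 8.71 (NP) without MBP, and 8.91 (MBP) and 8.83 (NP+MBP) with it. Both arrays with MBP lay above both without it, by 0.12 in each pair, the opposite direction to Cldn11. This gap was smaller than the 0.19 and 0.13 that mark the upper 5% of all probe sets in MBP minus control and in NP+MBP minus NP.

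Cldn12, which unlike most claudins lacks the C-terminal motif that binds PDZ domains, was at 9.50 in control and 9.46 with NP, against 9.46 with MBP alone and 9.58 with both compounds. The highest array was NP+MBP, and the other 3 lay within 0.05. Its NP+MBP minus MBP of 0.12 was above the 0.10 that marks the upper 5% of all probe sets there. Its NP+MBP minus NP, also 0.12, was below the 0.13 that marks them in that pair. Cldn1, a claudin of the epidermal barrier, was at 7.95 in control and 7.996 with NP, against 7.91 with MBP alone and 7.89 with both. Both arrays with MBP lay below both without it, by 0.04 and 0.10, both inside the central 90% of all probe sets. Cldn15, a cation pore claudin of the intestine, was at 7.71 in control and 7.71 with NP, against 7.65 with MBP alone and 7.70 with both. Its range of 0.07 over the arrays was the smallest of the members, against a median range of 0.10 over all probe sets above the filter and 0.67 for Cldn11.

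**Figure D2:**
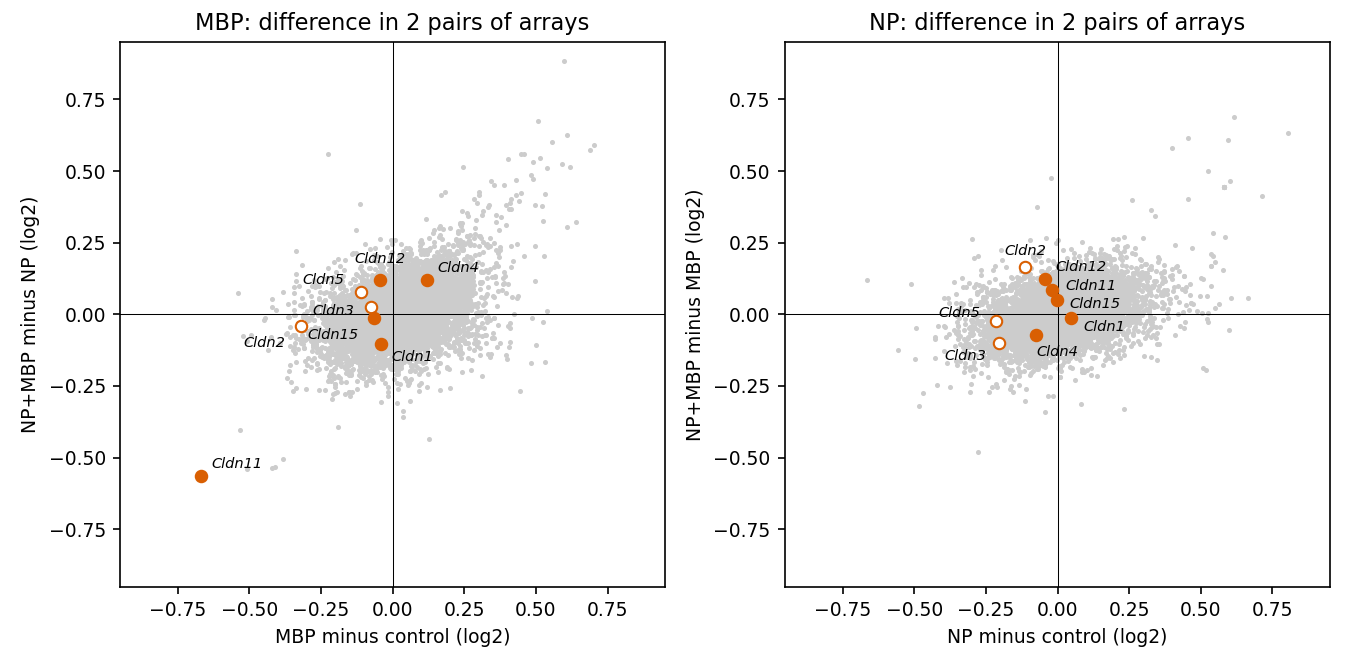
Each panel sets the difference of a compound in 1 pair of arrays (horizontal, log2) against the other pair (vertical, log2) for probe sets above the filter (grey) and the 8 claudins (orange; open circles are the 3 members below the filter). With MBP, Cldn11 lies at -0.67 and -0.56 at the lower left edge, and the other 7 lie within 0.32 of 0 in both pairs. With NP, all 8 lie within 0.22 of 0.

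Cldn3, Cldn5 and Cldn2 fell under the signal filter, with mean log2 signals of 7.19, 6.49 and 5.62. The members nearest the filter were Cldn15 inside it at 7.69 and Cldn3 outside it. Cldn3, which in mouse Sertoli cells is known as a claudin of newly forming barrier junctions, was at 7.31 in control and 7.23 with MBP, against 7.10 with NP alone and 7.13 with both compounds. Both arrays with NP lay below both without it, with differences of -0.21 and -0.10. Cldn5, the main claudin of endothelial cells and of the blood-brain barrier, was at 6.61 in control and 6.49 with MBP, against 6.39 with NP alone and 6.47 with both. Control was its highest array and the 3 treated arrays lay within 0.10 of each other. The annotation notes a cross-hybridizing transcript for the Cldn5 probe set, and it places the Cldn3 and Cldn5 probe sets on unplaced contigs of chromosomes 12 and 11. The endothelial markers Cdh5, Tek and Vwf had MBP differences of -0.01 ± 0.01, 0.01 ± 0.23 and -0.01 ± 0.08 over both pairs, and Cdh5 was the 1 of these 3 above the filter. For Tek the mean near 0 comes from opposite differences of 0.17 without NP and -0.16 with it.

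Cldn2, which forms a cation and water pore in leaky epithelia, was at 5.76 in control and 5.65 with NP, against 5.44 with MBP alone and 5.61 with both. The MBP array was lowest and control highest. MBP minus control was -0.32, past 1.2-fold, but NP+MBP minus NP was -0.04, and the mean of -0.18 ± 0.20 has an SD larger than itself. Of the 45 antigenomic probe sets, designed to match nothing in the rat genome, 24 had a mean signal below that of Cldn2, 28 below Cldn3 and 26 below Cldn5. Cldn15 lay above 30 of the 45, Cldn1 above 32, Cldn4 above 38, Cldn12 above 44 and Cldn11 above all 45 in its mean over the arrays. On the MBP and NP+MBP arrays taken singly, the brightest antigenomic set was at 9.61 and 9.55, above Cldn11. By this measure the signal of the members below the filter is not separated from background, and that of Cldn15 and Cldn1 lay above only a few more of these sets than Cldn3, so their small differences carry the same limit.

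The 14 other claudins on the array showed no difference of 1.5-fold in any comparison. The share of all probe sets above the filter past 1.5-fold in either direction was 0.0652% in MBP minus control, 0.0362% in NP+MBP minus NP, 0.0725% in NP minus control, 0.029% in NP+MBP minus MBP and 0.225% in NP+MBP minus control. Cldn6 and Cldn23 were the 2 above the filter. Against the control array most were lower, 13 of 14 in MBP minus control (median -0.17), 13 in NP minus control (-0.16) and 12 in NP+MBP minus control (-0.15). Of all probe sets below the filter, 69.4%, 67.7% and 69.1% were lower in these comparisons, in the same order. In the pairs without the control array the counts were 5 of 14 lower in NP+MBP minus NP (median 0.07) and 6 of 14 in NP+MBP minus MBP (0.02). Of all probe sets below the filter, 55.1% and 54.0% were lower there. These comparisons share the control array or other arrays. Quantile normalization left 10 of 14 lower in MBP minus control and 9 in NP+MBP minus control. In NP minus control it left 13 of 14 lower, with a median of -0.10.

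Probe sets below the filter were in general lower on the treated arrays than on the control array. Of 13798 such sets, 69.4% were lower in MBP minus control, with a median of -0.07, and 55.1% in NP+MBP minus NP, with a median of -0.01. The antigenomic sets had medians of -0.06 and -0.02 in these comparisons, with 31 and 28 of 45 lower. Of 15 claudins below the filter, members included, 14 were lower in MBP minus control and 6 in NP+MBP minus NP. The part of the background in these differences was not tested. Cldn11 differed by -0.67 and -0.56 in the same pairs at a mean log2 signal of 9.72. Among the most uneven of the other claudins, chosen after their values were seen, Cldn10 was at 6.15 in control and 5.67 with NP, against 5.80 with MBP alone and 5.82 with both. Cldn24 was at 5.38 in control and 5.14 with NP, against 5.07 with MBP alone and 5.60 with both, its highest array.

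**Figure D3:**
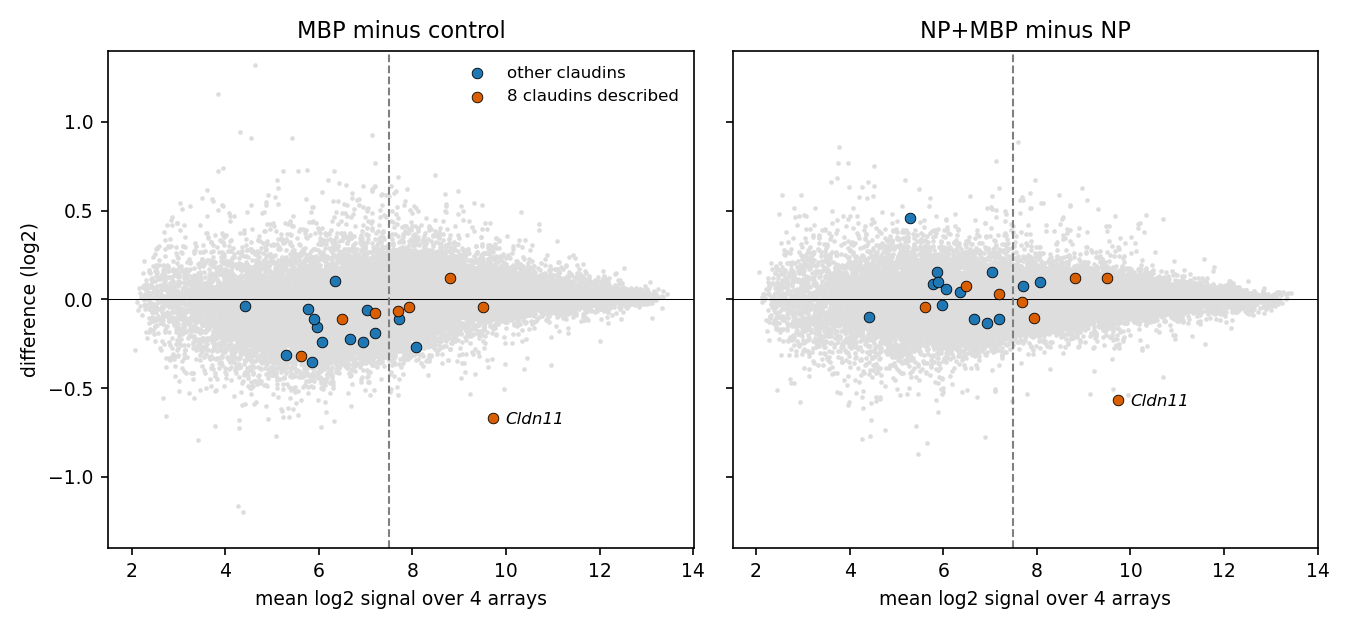
Differences (vertical, log2) are plotted against mean log2 signal for all non-control probe sets (grey), the 8 claudins described (orange) and the 14 other claudins (blue), in MBP minus control (left) and NP+MBP minus NP (right). The dashed line is the signal filter. Left of it, 14 of 15 claudins lie below 0 in the left panel and 6 of 15 in the right, and Cldn11 lies below the grey points of like signal in both.

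As a group, the membrane partners of the claudins did not follow Cldn11. Of 10 listed, 8 were measured, with a median of 0.04 in MBP minus control and 0.11 in NP+MBP minus NP, against 0.03 and 0.01 over all probe sets above the filter. None was past 1.5-fold in either pair or in NP+MBP minus control, and 2 were past 1.2-fold higher in MBP minus control, where 1.88% of probe sets were. These were Ocln, which encodes occludin, and F11r, which encodes JAM-A and lay at the threshold with 0.2632 against 0.2630. Quantile and cyclic loess normalization each put F11r at 0.22, inside 1.2-fold, and Ocln at 0.30, still past it. Ocln was at 8.06 in control and 8.23 with NP, against 8.37 with MBP alone and 8.49 with both, a difference of 0.28 ± 0.04 over both MBP pairs. F11r was at 9.42 in control and 9.45 with NP, against 9.68 with MBP alone and 9.70 with both, a difference of 0.26 ± 0.01. Both arrays with MBP lay above both without it in each of these genes, the opposite direction to Cldn11. Marveld2, which encodes tricellulin of tricellular junctions, stood at 0.14 ± 0.13, and Marveld3 at -0.16 ± 0.11, and both lay below the filter. In both MBP pairs 5 of the 8 were higher and 2 lower, where 42.1% and 21.5% of probe sets were. The 2 lower in both, as Cldn11 was, were Marveld3 and Esam, the latter above the filter at -0.10 ± 0.05. Marveld3 was also past 1.2-fold lower in NP+MBP minus control, at -0.34, where 2.12% of probe sets were.

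The scaffold and polarity genes of the junction were counted in the same way. Of 24 listed names, some of them synonyms, 18 were measured, and none was past 1.2-fold in MBP minus control or NP+MBP minus NP, where 2.96% and 0.833% of probe sets were past it in either direction. With 18 genes a count of 0 lies near these shares. The medians were 0.04 and 0.05. In MBP minus control 12 of the 18 were higher, where 64.1% of probe sets were. In NP+MBP minus NP 15 were higher, where 56.4% were. In both MBP pairs 11 were higher and 2 lower, where 42.1% and 21.5% of probe sets were. Among those with the largest MBP differences over both pairs were Cgnl1 (paracingulin) at 0.13 ± 0.06, the polarity gene Pard6a at -0.12 ± 0.05 and the scaffold gene Magi3 at 0.09 ± 0.05. Pard6a lay below the filter. Each of these 3 had the same sign in both MBP pairs.

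Genes known to act on claudins in Sertoli or epithelial cells were also examined. Of 18 listed, 17 were measured, with medians of 0.02 in MBP minus control and -0.02 in NP+MBP minus NP. Tnf, which encodes a cytokine known to disturb the Sertoli cell barrier, was past 1.2-fold lower in MBP minus control at -0.45 but stood at -0.10 in NP+MBP minus NP, and its signal was below the filter. Fshr, the FSH receptor, was at -0.13 ± 0.17, and the annotation marks its probe set as open to cross-hybridization. Snai1, a repressor of claudins in epithelial cells, was at -0.13 ± 0.02 and the oestrogen receptor gene Esr1, below the filter, at -0.13 ± 0.03. For Fshr the SD over both pairs exceeded the mean.

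**Figure D4:**
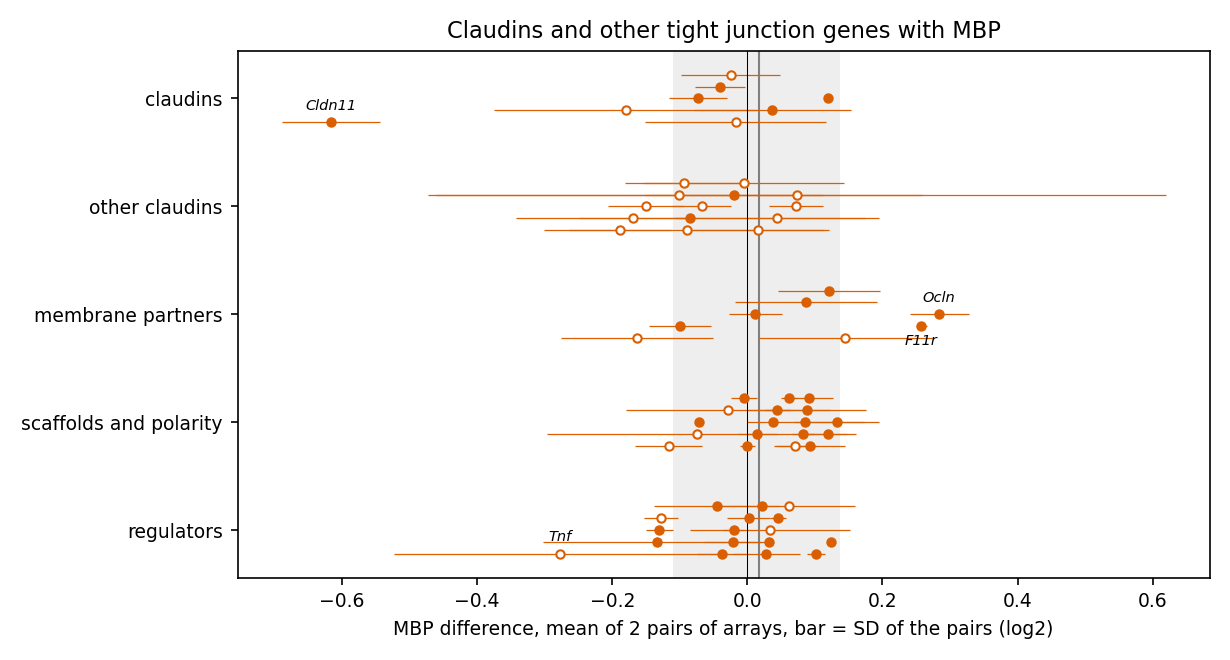
The MBP difference as the mean of 2 pairs of arrays (horizontal, log2; bars are the SD of the pairs) is drawn for the 8 claudins, 14 other claudins, 8 membrane partners, 18 scaffold and polarity genes and 17 regulators, with open circles below the signal filter. The grey band holds the central 90% of all probe sets above the filter, -0.11 to 0.14. Cldn11 lies at -0.62, far left of the band, and Ocln and F11r lie to the right of it at 0.28 and 0.26.

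To find genes with an array pattern like that of Cldn11, the 4 values of each gene above the filter were centred on their own mean and the root mean square distance to Cldn11 was taken over the 4 arrays. Of 9997 other named genes, with a median distance of 0.32, Dpt (dermatopontin, a matrix protein) was closest at 0.06. Vsig1, an immunoglobulin-domain junction protein, followed at 0.09, the surface glycoprotein gene Cd34 at 0.11, the matrix protein gene Thbs2 at 0.17, the ectonucleotidase gene Entpd2 at 0.17 and the secreted Wnt modulator gene Sfrp2 at 0.17. All 6 had lower signal on both arrays with MBP than on both without it, as the measure asks. None of the other claudins above the filter was among them, and the 3 members below the filter were outside the search.

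Dpt was at 10.19 in control and 10.25 with NP, against 9.68 with MBP alone and 9.71 with both. Vsig1 was at 7.96 in control and 8.11 with NP, against 7.54 with MBP alone and 7.58 with both. In neither gene did the 2 arrays with MBP overlap the 2 without it, which follows from how these genes were picked. The genes closest to the mirror image of Cldn11 were Fgl2 at a distance of 0.03, Efhd1 at 0.03, Mmd2 at 0.05 and the sodium channel subunit gene Scn3b at 0.06. With 4 arrays and a measure that picks on the same values, these distances are a description.

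**Figure D5:**
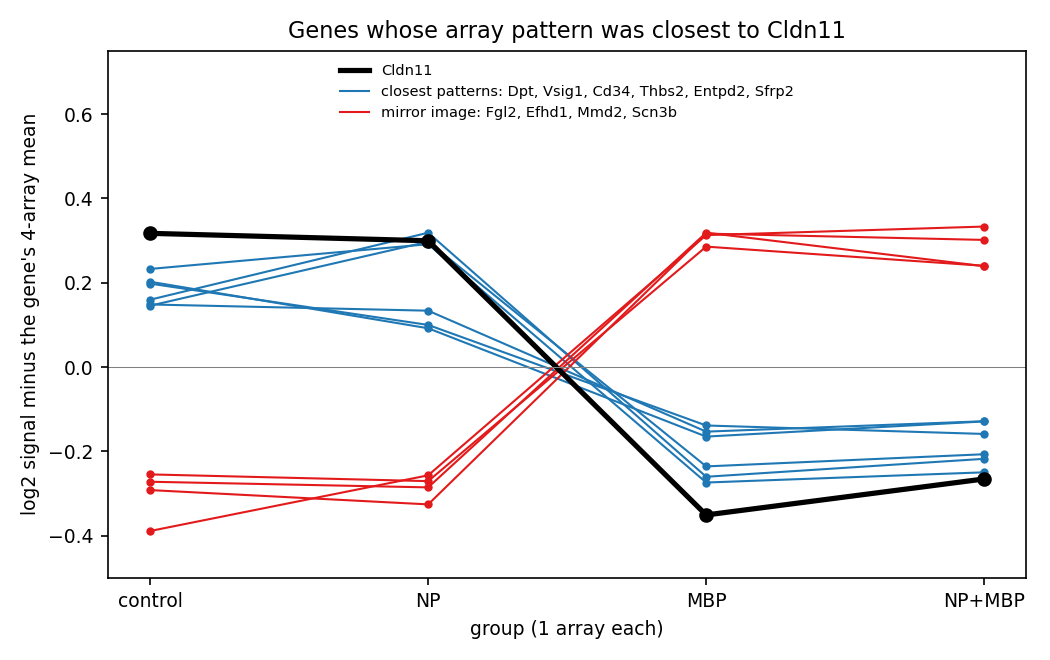
The log2 signal of each gene minus its own mean over the 4 arrays (vertical) is drawn by group for Cldn11 (black), the 6 genes with the closest pattern (blue) and the 4 closest to its mirror image (red). Cldn11 lies near 0.3 without MBP and near -0.3 with it, and the blue lines follow it with smaller MBP differences. Between control and NP most blue lines differ more than Cldn11 does, some upward and some downward.

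Dpt and Cd34 are also on the list of fibroblast and stroma markers, so the whole of that list is given beside Cldn11. Of its 6 members, 3 were lower in both MBP pairs (Dpt, Cd34 and Lum), 0 were higher in both and 3 had opposite signs. Over the 13798 probe sets above the filter, 21.5% were lower in both MBP pairs and 42.1% higher in both. Lum stood at -0.15 ± 0.02, Col1a1 at 0.00 ± 0.01, Pdgfra at 0.00 ± 0.06 and Dcn at -0.01 ± 0.02. The summed signal of the list on the linear scale was 18242 in control and 18537 with NP, against 17455 with MBP alone and 17738 with both. For the 11 Sertoli cell markers it was 11843 in control and 12158 with NP, against 12132 with MBP alone and 11884 with both. Of these, 4 were lower in both MBP pairs, 4 higher in both and 3 had opposite signs, and the 4 of 11 higher in both are near the share over all probe sets. The part of stromal or Sertoli cell content in the Cldn11 difference was not tested.

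Some markers of other cells also differed with MBP, and those named here were chosen after their values were seen. Dazl, which encodes an RNA-binding protein of germ cells, was at 6.56 in control and 6.85 with NP, against 7.49 with MBP alone and 7.63 with both. Both arrays with MBP lay above both without it, and the differences of 0.93 and 0.78 were larger in size than those of Cldn11, at a signal below the filter. Of the 4 germ cell markers measured, 2 were higher in both MBP pairs and 2 had opposite signs, and their summed signal was 581 in control and 562 with NP, against 644 with MBP alone and 688 with both. Cyp17a1, which encodes a steroid-producing enzyme of Leydig cells, stood at -0.30 ± 0.01 over both MBP pairs, also below the filter. Of the 5 Leydig cell markers, 3 were lower in both pairs and 2 higher in both, with summed signals of 2296 (control), 2272 (NP), 2294 (MBP) and 2243 (NP+MBP). Krt8, an epithelial keratin gene above the filter, was at 0.18 ± 0.01. Of the 4 epithelial markers, 3 were higher in both pairs and 1 had opposite signs, with summed signals of 1097 (control), 1088 (NP), 1194 (MBP) and 1189 (NP+MBP). The 4 peritubular myoid markers were within 0.06 in both pairs, with 1 lower in both and 1 higher in both, and all 5 macrophage markers had opposite signs in the pairs. Over the probe sets above the filter, 21.5% were lower in both MBP pairs and 42.1% higher in both. No such share was taken for sets below it, where most germ cell, Leydig, epithelial and macrophage markers lie. The part of these cells in the Cldn11 difference was not tested.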

How the data were processed

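RNA of 4 groups of rat Sertoli cells was read on 1 gene-level array each, and 4 further microRNA samples were not used. The values are log2 signals that the authors summarised by gene-level RMA, per the file headers. MAS5 is the tool named in the submitters' processing notes, at odds with the headers, which were followed. The series matrix table deposited beside it was equal in every cell (0 differences above 1e-09). Groups came from the sample titles.

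Of 29214 probe sets, 27596 were not controls, and 13798 with a mean log2 signal at or above their median, 7.50, served as background. Fold counts used 1.5-fold and 1.2-fold. The counting was tested on simulated data. No test of the claudins was made, since the members and lists were chosen with earlier results of these data known. Named genes were the 8 members, up to 4 genes per junction list with the largest MBP difference (some list genes are counted but not reported here by name), and the 6 patterns nearest to Cldn11 and 4 nearest to its mirror image, besides marker genes and Cldn10 and Cldn24, chosen after their values were seen. Marker lists for peritubular, Leydig, germ, endothelial, macrophage and epithelial cells were counted too. Of the epithelial markers, 1 of 4 measured was above the filter. Symbols are those of the array annotation, and all 8 members matched RefSeq by accession. Coordinates are the annotation's, which gives RGSC3.4 positions for 6 of the 8 members, all overlapping. A planned protein comparison was not run.

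Alternatives were median centring, quantile or cyclic loess scaling (limma 3.58.1 in R 4.3.3), the other deposited table, averaging a gene's rows, other filters and other folds. Computations used Python 3.11.15, numpy 2.4.6, pandas 2.3.3 and matplotlib 3.10.9.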

Additional observations from a re-analysis of the deposited data

Results flagged for a closer look

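In 3 members the MBP difference had opposite signs with and without NP, and in 5 the NP difference had opposite signs with and without MBP. With 1 array per group these differences in sign were not tested, and chance gives opposite signs often where differences are near 0. For MBP, the log2 differences without and with NP were -0.077 and 0.027 for Cldn3, -0.11 and 0.077 for Cldn5, and -0.045 and 0.12 for Cldn12. For NP, the differences without and with MBP were -0.018 and 0.085 for Cldn11, 0.047 and -0.014 for Cldn1, -0.11 and 0.16 for Cldn2, -0.042 and 0.12 for Cldn12, and -0.0012 and 0.051 for Cldn15.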

How the results depend on the processing

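Under the 3 alternatives of scaling each of the 40 claudin differences moved by less than the SD of that comparison over all probe sets. With the deposited values included, Cldn11 ranged from -0.71 to -0.64 in MBP minus control, from -0.58 to -0.56 in NP+MBP minus NP and from -0.64 to -0.55 in NP+MBP minus control. The other table and the mean of rows repeated the values exactly, and of the 120 values under the 3 scalings 7 turned sign, for Cldn11 in NP minus control and Cldn15 in NP minus control and NP+MBP minus control, none larger than 0.03. The count of claudins past 1.5-fold lower in MBP minus control went from 1 to 2 at 1.2-fold and to 0 at 2-fold. In NP+MBP minus NP it went from 0 to 1 at 1.2-fold. In NP+MBP minus control it went from 0 to 1 with quantile normalization, cyclic loess normalization or a 1.2-fold threshold. Probe sets past 1.5-fold in either direction numbered 9, 5, 10, 4 and 31 in the 2 MBP pairs, the 2 NP pairs and NP+MBP minus control, in that order. With no filter they numbered 63, 30, 101, 70 and 145, with sets under the 75th percentile of signal left out 1, 0, 1, 1 and 1, at 1.2-fold 408, 115, 420, 41 and 773, and at 2-fold 0, 0, 0, 0 and 2. No second row existed for any member, so the choice of row could not be varied. No paired analysis was possible because each group had 1 gene-level array, so the groups share only 1 replicate number. The 2 pairs of arrays per compound are pairs of groups. Signals near background limit the members below the filter.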
